A study of Saccharomyces cerevisiae with 12 samples.

Results

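The regulators and early genes of meiosis were followed by RNA-seq in a diploid yeast that was grown, and not sporulated, in 6 environments. The 10 genes are the regulators *IME1* (YJR094C), *IME2* (YJL106W) and *RME1* (YGR044C), the noncoding RNA *IRT1*, the early meiotic genes *REC8* (YPR007C), *HOP1* (YIL072W), *DMC1* (YER179W), *SPO11* (YHL022C) and *SPO13* (YHR014W), and the transcription factor gene *NDT80* (YHR124W). They were taken by name from the 7127 identifiers of the deposited tables, with earlier results of these data known. All 10 were listed in both tables. *IRT1* was selected on its level in SC with NaCl, the highest of the 6 environments, so its values are given as a description with no test. The other 9 genes were tested.

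The strain was BY4743, a diploid formed from haploids of opposite mating type that, as background, lacks both copies of *HIS3*, *LEU2* and *URA3* and is heterozygous for deletions of *LYS2* and *MET17*. All libraries share this genotype. The synthetic complete medium SC was used in 3 ways: at 30°C, called standard SC here and drawn as SC 30°C in the plots, at 37°C, and with NaCl added to 40 g/l at 30°C. The rich medium was used with glucose (YPD) at 24°C and 32°C, and with 3% glycerol in place of glucose (YPG) at 30°C. Each environment was represented by 2 independently started cultures collected in the advanced growth phase, which gave 12 libraries of total RNA. The medium label of the YPG libraries reads YPD, and they were taken as YPG from their titles.

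In budding yeast, starvation of a diploid with both mating types induces *IME1*, the transcription factor that starts meiosis. Ime1 acts with the DNA-binding protein Ume6 at URS1 elements to turn on the early meiotic genes, the kinase Ime2 among them, and Ndt80 later turns on the middle genes through elements called MSE. Rme1 is a zinc finger protein that keeps haploid cells out of meiosis, and its gene is repressed in diploids of both mating types. Rme1 activates *IRT1*, a noncoding RNA that is transcribed across the *IME1* promoter in the direction of *IME1* and is known to repress it in cis.

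The positions of these elements were read from the R64 reference genome. *IME1* lies on the minus strand of chromosome X (604569 to 605651) and *IRT1* upstream of it on the same strand (605936 to 607424). The end of *IRT1* is 284 bp from the start codon of *IME1*, and its start is 1773 bp from that codon. No other annotated gene overlaps *IRT1* or any of the other 9 genes. The stretch between *IME1* and the next gene upstream, the ribosomal protein gene *RPL43B*, is 2653 bp long, and GAACCTCAA, the letters searched on both strands for an Rme1 site, occurs in it at a single place. This match begins 2040 bp upstream of the *IME1* start codon and 267 bp upstream of the start of *IRT1*. It is shown because Rme1 activates *IRT1* and it is the only exact match to these letters between the neighbouring genes. Sites with other letters are missed by this search, so the stretch is not shown to hold a single Rme1 site. The sequence is on the strand of *IME1*, chrX:607658-607716, with the matching letters in capitals.
Rme1 site upstream of IRT1: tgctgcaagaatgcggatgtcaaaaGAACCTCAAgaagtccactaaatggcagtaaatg
In windows from 250 bases before to 50 bases after the coding start, 0.35% of 6001 promoters held these letters, and none of the 9 protein-coding genes did. The stretch further held GCCGCC, the core of URS1, at 2312 bp upstream of *IME1*. It held AGGGG, the stress response element, at 1141 and 1106 bp, within *IRT1*, and CACAAA, the core of the MSE, at 2276, 509 and 10 bp.

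**Figure D1:**
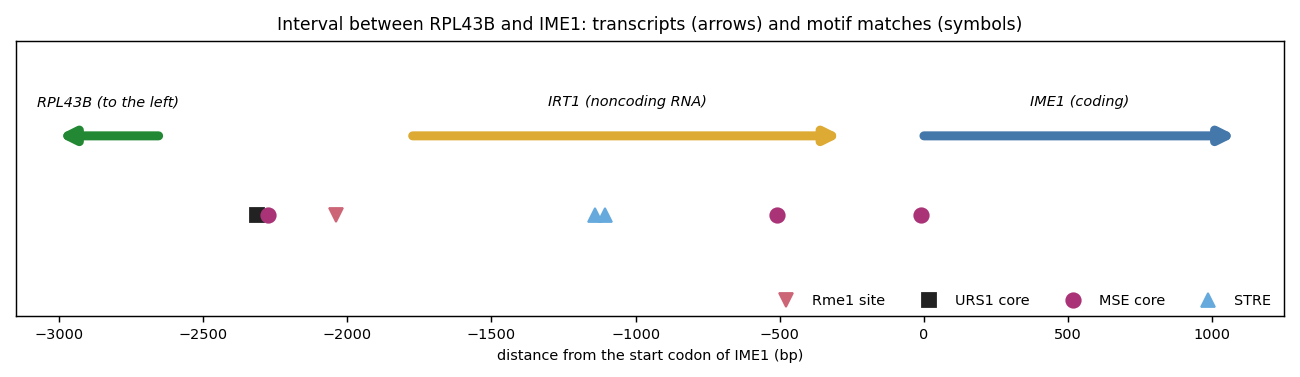
Map of the interval between *RPL43B* and *IME1*, to scale, with the distance from the start codon of *IME1* in bp on the horizontal axis. Arrows are annotated genes in their direction of transcription and symbols are exact motif matches on either strand. The match to the Rme1 site stands 267 bp upstream of the start of *IRT1*, and *IRT1* covers the stretch from 1773 to 284 bp upstream of *IME1*.

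The deposited counts had been scaled by the authors to a common library size and summed to between 13872996 and 14144527 per library. The worth of a single read pair, read from the steps between low values, was between 0.907 and 1.13 scaled counts, so a scaled count is close to 1 read pair. All 120 values of the 10 genes were whole numbers of read pairs to within 0.05 of a read pair. The least value was that of *REC8* in replicate 1 of YPD at 24°C, with 28 read pairs, and the highest that of *RME1* in replicate 1 of SC with NaCl, with 1571. FPKM, fragments per length of exon and depth of the library, was used to compare genes of different length. Folds between environments are on the scale of log2(scaled count + 1).

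*IRT1* had 1349 and 1281 scaled counts in the replicates of SC with NaCl. It had 184 and 209.9 in SC at 37°C, 182 and 186 in YPG, 172 and 175 in YPD at 32°C, 149 and 156 at 24°C in YPD, and 102 and 85.9 in standard SC. The NaCl libraries stood above all others, and in this order of environments only those of SC at 37°C and YPG overlapped. The mean in NaCl was 14.03 times that in standard SC and 6.69 times that of the next environment, SC at 37°C. The log2 difference from standard SC was 3.80 in SC with NaCl, 1.06 in SC at 37°C, 0.97 in YPG and, in YPD, 0.89 at 32°C and 0.70 at 24°C. Standard SC was therefore the lowest of the 6 environments for *IRT1*. In FPKM, *IRT1* had 60.4 ± 2.21 in NaCl (mean ± SD, n = 2), a level above that of 60.4% of the annotated protein-coding genes, and 4.31 ± 0.509 in standard SC, a level above that of 9.41% of them.

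The genes on either side of the *IME1* locus did not share this pattern. *RPL43B*, which encodes a protein of the large ribosomal subunit and is transcribed away from *IRT1*, had 352 and 362 scaled counts in NaCl and 3929 and 2599.7 in standard SC. It fell by 3.16 on the log2 scale (standard error 0.22, limma adjusted p = 4.35e-09). Its reads can be shared with those of its near-identical paralog *RPL43A*. *FIP1*, which encodes a subunit of the polyadenylation factor and lies 365 bp downstream of *IME1*, had 829 and 1018 scaled counts in NaCl and 815 and 848 in standard SC. These libraries overlapped, and its only rise over standard SC that passed the test was in YPG, by 0.94 on the log2 scale.

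**Figure D2:**
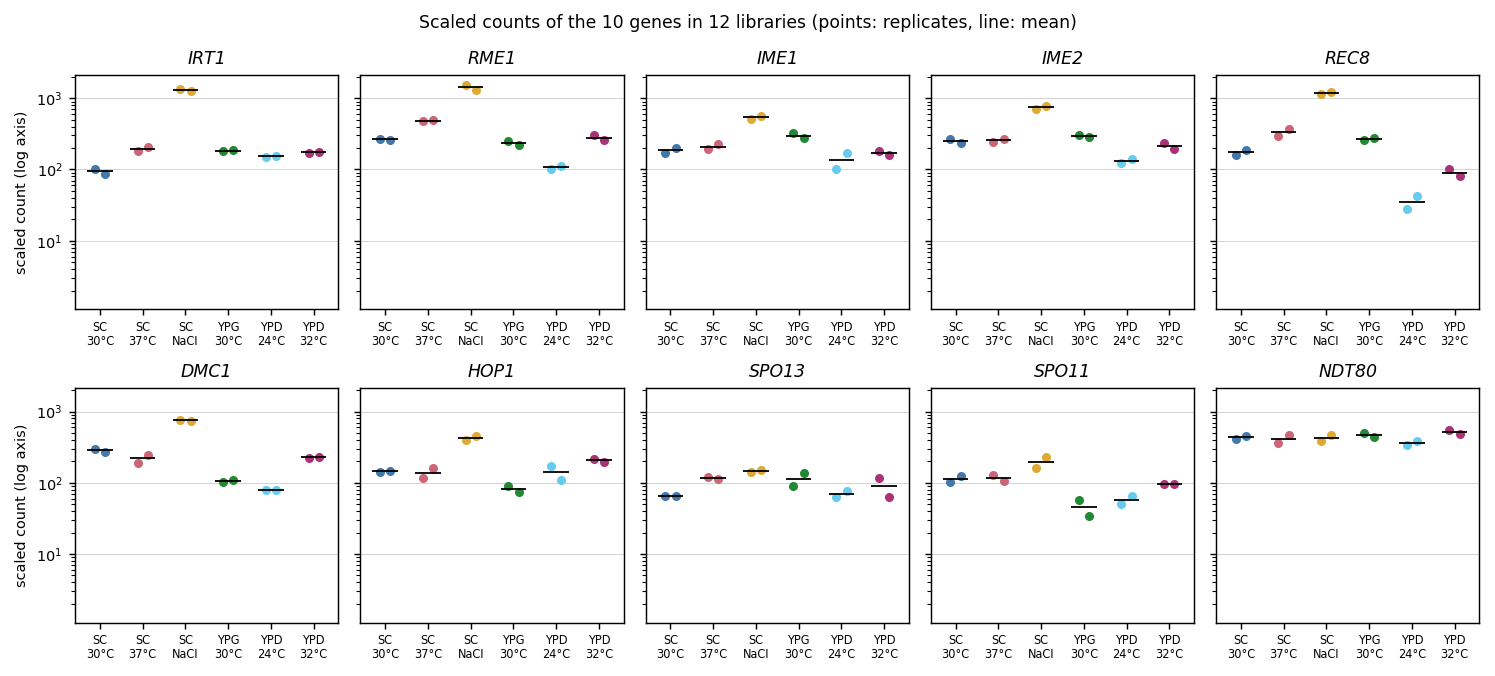
Scaled counts (log axis) of the 10 genes in the 12 libraries, with a point for each replicate and a line at the mean of the 2 replicates of an environment. *IRT1*, *RME1* and *REC8* have their NaCl points far above the rest, *REC8* has its lowest points in YPD at 24°C, and the points of *NDT80* overlap between neighbouring environments.

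*RME1*, on the minus strand of chromosome VII (582990 to 583892), had 1524 and 1319 scaled counts in SC with NaCl and 474 and 494 in SC at 37°C. It had 304 and 258 in YPD at 32°C, 271 and 259 in standard SC, 251 and 223 in YPG, and 102 and 112 in YPD at 24°C. The highest and the lowest mean were 13.3-fold apart, and of the neighbours in this order only YPD at 32°C and standard SC overlapped. *RME1* rose in SC with NaCl by 2.42 on the log2 scale (standard error 0.14) and in SC at 37°C by 0.87 (standard error 0.14). It fell by 1.3 (standard error 0.14) in YPD at 24°C against standard SC. In limma, with Benjamini-Hochberg adjustment, p was 6.05e-10, 0.0005 and 3.02e-06 for these differences. Its difference from standard SC was -0.16 in YPG (limma adjusted p = 0.334) and 0.08 in YPD at 32°C (0.692).

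The identity of the strain as a diploid of both mating types was checked on genes that such diploids are known to repress. *MFA1* and *MFA2*, the a-factor genes, were listed at 0 in all 12 libraries, but other markers were not at 0. Whether the counting could have left out reads of *MFA1* and *MFA2* was not tested, so these values alone do not check the strain. The summed FPKM of 8 haploid-specific genes was between 47.3 (YPD at 24°C) and 131 (SC with NaCl), with 107 and 131 in the NaCl replicates and at most 85.7 elsewhere. *FUS3* and *STE18*, of the pheromone response pathway, made up part of this: *FUS3* had 410.4 and 479 scaled counts in NaCl and 27.2 and 26.4 in standard SC, and *STE18* had 66 and 92.6 against 6.35 and 1.95. Of the 8 genes, 5 (62.5%) were higher in NaCl and 2 (25%), *FAR1* (-0.96) and *STE4* (-0.48), lower, against 33.8% and 47.2% of all genes. The 5 include *STE18*, which was near the floor in standard SC (log2 difference 4.09, standard error 0.74). Genes were tested only above a minimum mean count, and the NaCl values of *STE18* alone bring it over that minimum. Its call is thus not independent of the way it was admitted, and nothing is read from that call. The sum of the 6 a-specific genes was between 15.9 and 34.4 FPKM and that of the 4 alpha-specific genes between 35.3 and 79.4, both highest in NaCl. The alpha-specific genes were not alike there: *SAG1* was higher than in standard SC (0.69), *STE3* lower (-0.75), and 2 were not called. Of the 12 values of *STE3*, 0 were whole read pairs. *HMRA1*, which shares its sequence with the mating-type locus, had 168 and 187 FPKM in NaCl and 71.2 and 123 in standard SC, while the alpha genes of the mating-type locus and its silent copy had at most 0.887 FPKM in any library. These alpha genes are known to share their sequence between both loci, so their reads can be lost or split in the counting and their low values check nothing. *RME1* is itself a gene of the haploid-specific kind, and the part of these markers in its level was not tested.

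*IME1* had 517 and 571 scaled counts in SC with NaCl, 323 and 275 in YPG, 195 and 224 in SC at 37°C, 169.6 and 202 in standard SC, 181 and 162 in YPD at 32°C, and 103 and 168 at 24°C in YPD. The NaCl libraries were the highest and the YPG libraries came next, with no overlap between them or with the rest. The other 4 environments overlapped with their neighbours, and the replicates of YPD at 24°C were as far apart as 1.63-fold. *IME1* rose by 1.55 on the log2 scale in SC with NaCl (standard error 0.21) and by 0.68 in YPG (standard error 0.21), with adjusted p of 6.85e-06 and 0.00964 in limma. Against YPD at 32°C, *IME1* was higher in YPG by 0.80 (standard error 0.21, limma adjusted p = 0.00397). The rise in YPG over standard SC no longer passed without replicate 1 of standard SC or without replicate 1 of YPG, where the limma adjusted p was 0.0783 and 0.0798. In YPD at 24°C *IME1* did not pass the test against standard SC (log2 difference -0.49, limma adjusted p = 0.059), and it did without replicate 2 of YPD at 24°C (-0.84, limma adjusted p = 0.00484).

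Per length, *IME1* was above *IRT1* in most environments. In standard SC *IME1* had 11.7 ± 1.45 FPKM and *IRT1* 4.31 ± 0.509 (SD, n = 2), so that the log2 ratio of *IRT1* to *IME1* was -1.20 and -1.69 in the 2 replicates. In SC with NaCl it was 0.92 and 0.71, the only environment in which *IRT1* was above *IME1* in both replicates. In YPD at 24°C it was 0.07 and -0.57, so the replicates lay on either side of equal levels. The ratio was -1.28 and -1.03 in YPG, -0.55 and -0.56 in SC at 37°C, and -0.53 and -0.35 in YPD at 32°C. *RME1* was above *IRT1* in FPKM in all 12 libraries. The log2 ratio of *IRT1* to *RME1* was lowest in standard SC (-2.14 and -2.31) and highest in YPD at 24°C (-0.18 and -0.24), where both RNAs were near their lowest levels, and it was -0.90 and -0.76 in NaCl. *IRT1* was selected on its level in NaCl, so nothing is read from its ratios there or from its peak beside the other RNAs. In NaCl *RME1*, *IRT1* and *IME1* were each at their highest level, at 108 ± 11, 60.4 ± 2.21 and 34.4 ± 2.39 FPKM (SD, n = 2). These are levels of bulk cultures: a gene transcribed at a low level in many cells and at a high level in few cells cannot be told apart in them, nor can fewer cells of a type and less RNA per cell.

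**Figure D3:**
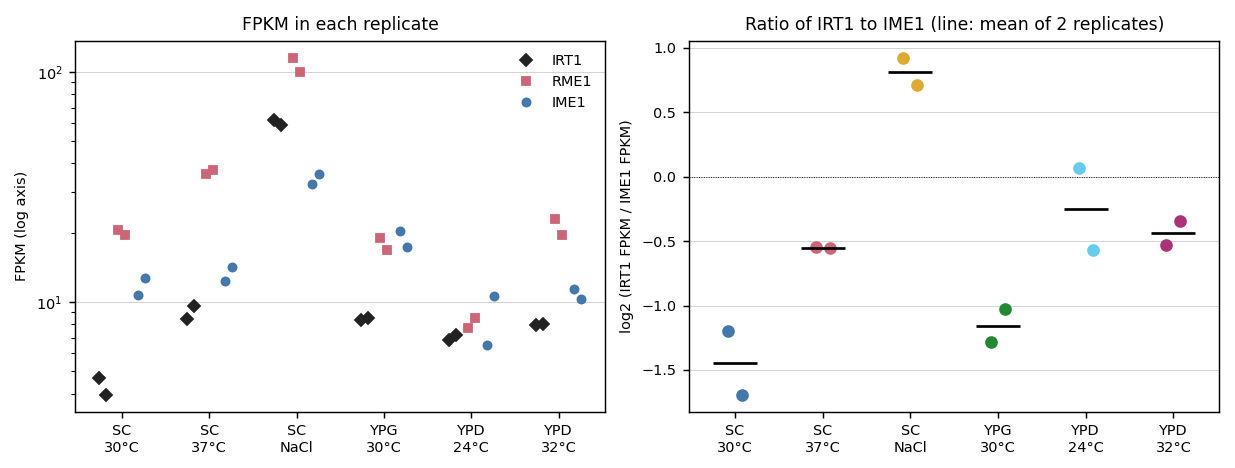
Left, FPKM (log axis) of *IRT1*, *RME1* and *IME1* in each replicate of the 6 environments. Right, log2 of the ratio of *IRT1* to *IME1* FPKM in each replicate, with a line at the mean of the 2 replicates: both points are above 0 only in SC with NaCl, and the points of YPD at 24°C lie on either side of 0.

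*IME2*, which encodes a meiosis-specific protein kinase (plus strand of chromosome X, 221390 to 223327), followed the order of *IME1* in all 6 environments. It had 714 and 772 scaled counts in SC with NaCl, 303 and 289 in YPG, 243 and 269.9 in SC at 37°C, 270.3 and 238 in standard SC, 234 and 196 in YPD at 32°C, and 123 and 142 at 24°C in YPD. Only SC at 37°C and standard SC overlapped. *IME2* rose in NaCl by 1.54 on the log2 scale (standard error 0.15, limma adjusted p = 2.18e-07). It fell in YPD at 24°C by 0.94 (standard error 0.15) against standard SC and by 0.69 (standard error 0.15) against YPD at 32°C. In YPG the difference from standard SC was 0.22 (limma adjusted p = 0.215), and with libraries rescaled by the median of ratios it was 0.35 and passed (limma adjusted p = 0.0314).

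Of the 5 early genes, *REC8*, *HOP1*, *DMC1* and *SPO13* hold the URS1 core GCCGCC, on either strand, in the window from 250 bases before to 50 bases after the coding start. *SPO11*, *IME2*, *IME1*, *RME1* and *NDT80* do not, while 5.13% of the 6001 promoters do. Elements further upstream or with other letters are missed by this search, so these genes are not shown to lack URS1. The 4 matches are shown because URS1 is the element through which the early genes are known to be held off in growing cells and turned on by Ime1. Each is printed on the strand of its gene with the core in capitals, which reads as its reverse complement where the match is on the other strand, from chrXVI:571540-571579, chrIX:226414-226453, chrV:548266-548305 and chrVIII:131935-131974.
REC8: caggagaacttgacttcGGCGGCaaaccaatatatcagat
HOP1: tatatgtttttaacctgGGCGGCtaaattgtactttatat
DMC1: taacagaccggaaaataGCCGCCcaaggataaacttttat
SPO13: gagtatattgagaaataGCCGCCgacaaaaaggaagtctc
Counted from the coding start, the first base of the core was at -184 in *REC8*, -171 in *HOP1*, -138 in *DMC1* and -95 in *SPO13*. The window of *NDT80* held 2 MSE cores, at -219 and -85, and that of *IME1* 1 at -10, while 18.8% of the promoters held CACAAA. The stress response element AGGGG, held by 21.6% of the promoters, was found in the windows of *IME2*, at -204, and *RME1*. The match of *RME1* lay at 37, within the coding sequence and not upstream of it. The gene models of the annotation begin at the start codon, so these distances are not from the start of transcription.

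*REC8* encodes the cohesin subunit that holds sister chromatids together in meiosis (minus strand of chromosome XVI, 569336 to 571378). It had 1165 and 1222 scaled counts in SC with NaCl, 297 and 368 in SC at 37°C, 262 and 279 in YPG, 159 and 190.4 in standard SC, 100.1 and 79.7 in YPD at 32°C, and 27.8 and 42.0 at 24°C in YPD. No neighbours in this order overlapped, and the highest mean was 34.2 times the lowest, the widest range among the 10 genes. *REC8* passed the test in every comparison. Its log2 difference from standard SC was 2.77 in SC with NaCl, 0.92 in SC at 37°C, 0.63 in YPG and, in YPD, -0.95 at 32°C and -2.31 at 24°C, each with a standard error of 0.21. The largest limma adjusted p among these 5 was 0.0143, in YPG. Leaving out replicate 1 of standard SC ended the calls in SC at 37°C (limma adjusted p = 0.0549) and in YPG (0.107). Leaving out replicate 2 of SC at 37°C or of YPG ended that environment's own call (0.0662 and 0.0704).

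*DMC1* encodes the meiosis-specific recombinase (plus strand of chromosome V, 548421 to 549517, 2 exons). It had 761 and 741 scaled counts in SC with NaCl, 299 and 272 in standard SC, 226 and 228 in YPD at 32°C, 191 and 249 in SC at 37°C, 101 and 109.9 in YPG, and 79.3 and 77.9 in YPD at 24°C. Only YPD at 32°C and SC at 37°C overlapped. *DMC1* rose in NaCl by 1.39 on the log2 scale, and it fell by 1.43 in YPG and by 1.85 in YPD at 24°C (standard error 0.16 for each). The limma adjusted p was 1.45e-06, 2.12e-06 and 3.29e-07. *DMC1* thus fell in YPG against standard SC, where *IME1* and *REC8* rose.

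*HOP1* encodes a protein of the meiotic chromosome axis (plus strand of chromosome IX, 226602 to 228419). Its scaled counts were 394 and 454 with NaCl in SC, 216 and 198 in YPD at 32°C, 142 and 146 in standard SC, 172 and 109 in YPD at 24°C, 116 and 162 in SC at 37°C, and 88.9 and 73.6 in YPG. NaCl was highest and YPG lowest, both without overlap, and 3 environments in the middle overlapped. *HOP1* rose in NaCl by 1.54 (standard error 0.23, limma adjusted p = 1.86e-05) and fell in YPG by 0.83 (standard error 0.23, limma adjusted p = 0.00522).

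*SPO11* encodes the protein that makes the double-strand breaks of meiotic recombination (minus strand of chromosome VIII, 62961 to 64157). It had 159 and 228 scaled counts in SC with NaCl, 128 and 106 in SC at 37°C, 102 and 123 in standard SC, 96.3 and 94.7 in YPD at 32°C, 50.6 and 66 at 24°C in YPD, and 57.1 and 34.0 in YPG. The NaCl libraries were above the others, and YPG and YPD at 24°C overlapped below the rest. *SPO11* rose in NaCl by 0.76 (standard error 0.27, limma adjusted p = 0.0198), and this call was lost without replicate 1 of standard SC (0.115) or replicate 2 of SC with NaCl (0.164). It fell by 1.33 in YPG and by 0.95 in YPD at 24°C (standard error 0.27), with limma adjusted p of 0.000606 and 0.00892. The latter call was lost without replicate 2 of standard SC (0.0737) or replicate 1 of YPD at 24°C (0.0811).

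*SPO13* encodes a regulator of the first meiotic division (plus strand of chromosome VIII, 132047 to 132922). It had 142 and 151 scaled counts in SC with NaCl, 121 and 112 in SC at 37°C, 91.1 and 137 in YPG, 119 and 62.8 in YPD at 32°C, 63.4 and 75.9 at 24°C in YPD, and 65.3 and 65.4 in standard SC. Apart from NaCl, each environment overlapped with the next, and the replicates of YPD at 32°C were 1.89-fold apart. *SPO13* rose in NaCl by 1.15 (standard error 0.28, limma adjusted p = 0.00174), in SC at 37°C by 0.82 (standard error 0.28, limma adjusted p = 0.0486) and in YPG by 0.77 (standard error 0.28, limma adjusted p = 0.0271). The call at 37°C was lost without any of the 4 libraries of the comparison or either library of YPD at 24°C (limma adjusted p from 0.0578 to 0.187). The call in YPG was lost without either library of standard SC or without replicate 2 of YPG (from 0.0823 to 0.239).

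*NDT80*, whose product turns on the middle genes of sporulation (plus strand of chromosome VIII, 356561 to 358444), was the flattest of the 10 genes. It had 547 and 483 scaled counts in YPD at 32°C, 497 and 434 in YPG, 415 and 454 in standard SC, 380.3 and 471 in SC with NaCl, 367 and 462 in SC at 37°C, and 338 and 387 in YPD at 24°C. All 5 pairs of neighbours overlapped, and the highest mean was 1.42 times the lowest. In SC with NaCl its log2 difference from standard SC was -0.03 (standard error 0.16, limma adjusted p = 0.843). Its moderated F over the 6 environments gave a limma adjusted p of 0.0919, while the other 8 genes tested passed that test with adjusted p of at most 0.00783. Of all 6082 genes tested, 96.0% passed it, so that variation among the environments was the rule in this table.

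The 9 genes were then counted comparison by comparison, beside all genes tested. In SC with NaCl, 8 of the 9 were higher than in standard SC and none lower, against 33.8% of all genes higher and 47.2% lower. *IRT1* was selected in this contrast, and nothing is read from the count. The median log2 difference was 1.54 for the 9 genes and -0.22 for all genes. In SC at 37°C, 3 of the 9 were higher (*RME1*, *REC8* and *SPO13*) and none lower, against 11.9% and 11.6% of all genes, with medians of 0.05 and 0.02. Without replicate 1 of standard SC or without replicate 2 of SC at 37°C, *RME1* alone was called at 37°C. In YPG, 3 were higher than in standard SC (*IME1*, *REC8* and *SPO13*) and 3 lower (*DMC1*, *SPO11* and *HOP1*), against 28.1% and 38.7% of all genes, with medians of 0.10 and -0.11. Without replicate 1 of standard SC the 3 lower genes were called in YPG and the 3 higher ones were not.

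In YPD at 24°C, 5 of the 9 were lower than in standard SC (*REC8*, *DMC1*, *RME1*, *SPO11* and *IME2*) and none higher, against 45.6% lower and 10.4% higher among all genes, with medians of -0.94 and -0.29. In YPD at 32°C only *REC8* was lower than in standard SC and none was higher, against 21.5% and 16.7% of all genes, with medians of -0.11 and -0.01. Without replicate 2 of YPD at 32°C, *SPO13* was called higher as well, with a log2 difference of 0.85 (limma adjusted p = 0.0406).

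Within YPD, 7 of the 9 were lower at 24°C than at 32°C and none higher, against 42.6% and 6.71% of all genes, with medians of -0.69 and -0.26. *DMC1* fell by 1.52, *RME1* by 1.38, *REC8* by 1.36 and *IME2* by 0.69 on the log2 scale, and these 4 calls stood with libraries rescaled by the median of ratios. The calls of *SPO11* (-0.72), *HOP1* (-0.59) and *NDT80* (-0.51) did not, with rescaled differences of -0.45, -0.33 and -0.24. All 3 were also lost without replicate 1 of YPD at 32°C. With other single libraries left out, *SPO11* was lost without either library of standard SC, SC at 37°C or YPD at 24°C, or replicate 2 of YPD at 32°C (limma adjusted p from 0.0513 to 0.24 over these 8 settings). *HOP1* was lost without either library of standard SC or YPG, replicate 2 of YPD at 24°C, or replicate 2 of YPD at 32°C (from 0.0502 to 0.437 over 7 settings), and *NDT80* without replicate 1 of YPD at 24°C (0.12). That rescaling moved the median of all genes by 0.20 in SC with NaCl, 0.13 in YPG and 0.11 in YPG against YPD at 32°C, with the calls of the 9 genes unchanged except that *IME2* passed in YPG against standard SC. It moved the median by 0.26 between 24°C and 32°C in YPD, and the share of higher genes among all calls from 13.6% to 50.7%. The corresponding values were 0.28 and from 18.6% to 48.6% for YPD at 24°C against standard SC, where the same 5 genes were called. *IRT1* differed by -0.19 between 24°C and 32°C in YPD as deposited and by 0.07 after rescaling, so its direction there depends on the scaling. Between YPG and YPD at 32°C, *REC8* (1.59), *IME1* (0.80) and *IME2* (0.46) were higher in YPG and *HOP1* (-1.34), *DMC1* (-1.10) and *SPO11* (-1.10) lower. These 3 higher and 3 lower genes stand against 26.9% and 36.5% of all genes, with medians of -0.15 for the 9 and -0.10 for all. The call of *IME2* was lost without replicate 2 of YPD at 32°C (limma adjusted p = 0.145) or replicate 1 of YPG (0.077).

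**Figure D4:**
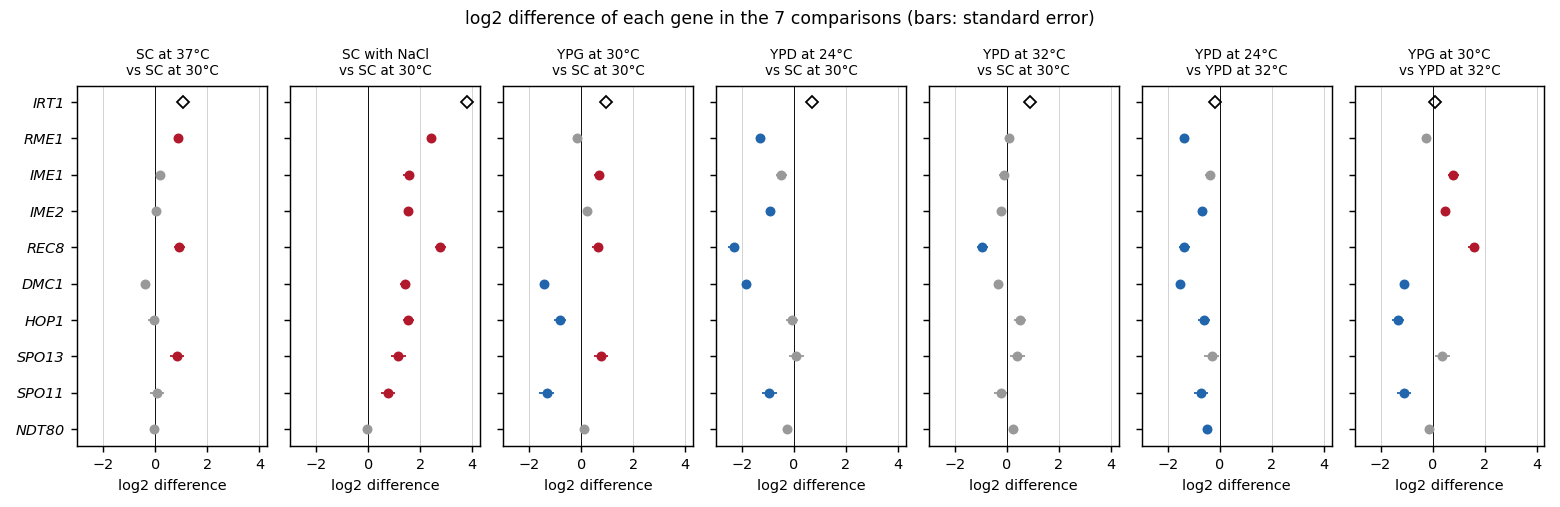
Difference of each gene in the 7 comparisons, in log2 units of scaled count + 1, with bars of 1 standard error. Red points are higher and blue points lower at a limma adjusted p under 0.05, grey points did not pass, and open diamonds are *IRT1*, which was not tested. *SPO11*, *HOP1* and *NDT80* lose their calls between YPD at 24°C and 32°C when libraries are rescaled, and the sign of *IRT1* there turns.

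The other regulators of meiotic entry were described from a list of 25 genes, all tested, that holds cofactors, kinases, repressors and pH-signalling genes. This list, like those of the early and of the middle and late genes, was chosen with earlier results of these data known. Its shares are therefore given as a description. In SC with NaCl 15 (60%) were higher and 6 (24%) lower than in standard SC, against 33.8% and 47.2% of all genes, with a median of 0.30 against -0.22. *RIM8*, of the Rim101 pathway that promotes *IME1* expression, rose by 2.48 on the log2 scale. *SLZ1*, of the mRNA methyltransferase complex of meiosis, rose by 1.93 and *RIM4*, an RNA-binding regulator of meiosis, by 1.79. *YHP1*, a repressor known to bind the *IME1* promoter, fell by 1.24, *MCK1*, a kinase that promotes *IME1* expression, by 1.14, and the corepressor gene *SSN6* by 0.85, although only 5 of the 12 values of *SSN6* were whole read pairs. *UME6*, whose product binds URS1, had 1710 and 1939 scaled counts in NaCl and 872 and 832 in standard SC, and its highest level was in YPG, with 2530.3 and 2499. In YPG it rose by 1.56 over standard SC, the largest rise of the list there, while *SSN8*, the cyclin C of the Mediator kinase module, fell by 2.01 and *MSN4*, a stress transcription factor gene, by 1.79. The list had 6 higher (24%) and 12 lower (48%) genes in YPG, against 28.1% and 38.7% of all genes. In YPD at 32°C it had 2 higher (8%) and 5 lower (20%), the latter near the 21.5% of all genes, with 16.7% of all genes higher. In SC at 37°C it had 4 higher (16%) and 2 lower (8%), against 11.9% and 11.6% of all genes, and 5 of each after rescaling by the median of ratios. In YPD at 24°C it had 3 higher (12%) and 12 lower (48%) genes than in standard SC, against 10.4% and 45.6% of all genes, and 6 of each after that rescaling, so no direction is given in either.

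*IME4*, the catalytic subunit of the methyltransferase, and *RME2*, the noncoding RNA that is antisense to it, overlap, and only 1 of the 12 values of each was a whole number of read pairs. Whether the counting used the strand is not given in the sources used here, so reads of this pair cannot be told apart. *RME2* had 637 and 799 scaled counts in NaCl and 567 and 574 in standard SC, a log2 difference of 0.32, and *IME4* had 243 and 413 against 297 and 242.

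The early meiotic genes outside the 10 were taken from a list of 26, of which 24 were tested. Of these, 19 (79.2%) were higher and 3 (12.5%) lower in SC with NaCl, against 33.8% and 47.2% of all genes, with a median log2 difference of 1.07 against -0.22. This list, too, was chosen with earlier results of these data known, so its shares are given as a description. *MND1*, of the complex that aids Dmc1, had 568 and 514 scaled counts in NaCl against 14.5 and 20.5 in standard SC and rose by 4.89. *ECM11*, of the synaptonemal complex, rose by 3.20 (standard error 0.61) and *MEK1*, the kinase of the meiotic recombination checkpoint, by 2.69 (standard error 0.24). As with *STE18*, a low gene can reach the minimum mean count through its NaCl values. Whether *ECM11* or other genes of the list did so was not tested, so nothing is read from the calls of low genes in NaCl. *MEI4* (-1.04), *SPO16* (-0.78) and *MER1* (-0.49) fell, and after rescaling 2 genes of the list were lower and 20 higher. Of the list, 5 genes (20.8%) were higher and none lower in SC at 37°C, where 11.9% of all genes were higher and 11.6% lower. In YPD at 32°C 7 (29.2%) were higher and 2 (8.33%) lower than in standard SC, against 16.7% and 21.5% of all genes. The median there was -0.07 against -0.01, and after rescaling 7 were higher and 4 lower. In YPG 9 (37.5%) were higher and 3 (12.5%) lower, against 28.1% and 38.7% of all genes, with *CSM4*, of meiotic chromosome movement, highest at 2.02 and *HFM1*, a helicase of crossing over, lowest at -1.82. In YPD at 24°C 2 (8.33%) were higher and 7 (29.2%) lower than in standard SC, where 10.4% of all genes were higher and 45.6% lower. Against YPD at 32°C 9 (37.5%) were lower and none higher, near the 42.6% of all genes that were lower. After rescaling these counts became 5 higher and 5 lower, and 4 higher and 3 lower, so no direction is given for the list at 24°C. The URS1 core was found in 16 of the 26 promoters of this list (61.5%), and in 4 of 25 of the regulators.

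The middle and late sporulation genes, which Ndt80 is known to turn on directly or through later steps, were described from a list of 33 genes, of which 32 were tested. In SC with NaCl 19 (59.4%) were higher and 5 (15.6%) lower, against 33.8% and 47.2% of all genes, with a median of 0.61 against -0.22, while *NDT80* itself did not differ beyond its error. The limits given above, on the choice of the lists and on low genes in NaCl, hold here as well. *SPS100*, which encodes a spore wall protein, had 42008 and 39101 scaled counts in NaCl and 107 and 111 in standard SC, a rise of 8.52 on the log2 scale. *SHC1*, an activator of chitin synthesis in sporulation, rose by 5.55 and *DIT1*, of spore wall synthesis, by 4.29. *SPS4* (-2.56), *CDA1* (-2.49) and *SSP1* (-2.10) fell. In YPD at 32°C 3 (9.38%) were higher and 14 (43.8%) lower than in standard SC, against 16.7% and 21.5% of all genes, with a median of -0.55 against -0.01. In YPD at 24°C 1 was higher and 15 (46.9%) lower, a share lower near the 45.6% of all genes, and after rescaling 5 were higher and 9 lower. Against YPD at 32°C, YPG had 16 (50%) higher and 4 (12.5%) lower genes of this list, against 26.9% and 36.5% of all genes, with a median of 0.75 against -0.10, led by *SPS100* (4.14) and *GIP1* (2.13), a phosphatase subunit of spore formation. Against standard SC, YPG had only 5 (15.6%) higher and 10 (31.25%) lower, where 28.1% and 38.7% of all genes were. The median was 0.08 against -0.11, and after rescaling 11 were higher and 8 lower. Of the 33 promoters, 25 (75.8%) held the MSE core, against 18.8% of all promoters.

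**Figure D5:**
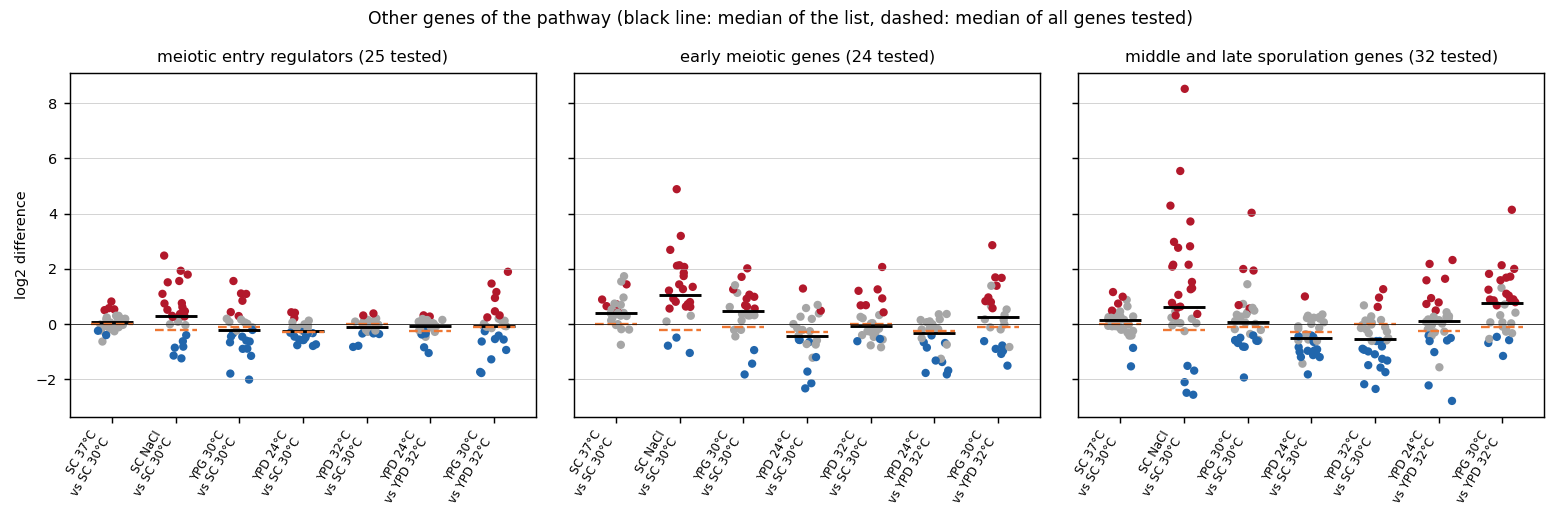
Differences, in log2 units, of the tested genes of the 3 lists in the 7 comparisons, with a black line at the median of the list and a dashed line at the median of all genes tested. Red points are higher and blue points lower at a limma adjusted p under 0.05, and grey points did not pass. In SC with NaCl the medians of the lists are 0.30, 1.07 and 0.61 and that of all genes is -0.22.

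The genes whose level followed *IRT1*, *IME1* and *RME1* most closely over the 12 libraries were taken as the 5 outside the 10 with the highest Pearson r of log2(scaled count + 1). For *IRT1* they were *PTK1*, *VIR1*, *ULS1*, *MPF1* and *MPS3*, with r between 0.978 and 0.984. *PTK1* had a mean of 4365 scaled counts in NaCl and between 909 and 1369 in the other 5 environments, and *MPF1* 8834 against 664 to 1016, and both were lowest in standard SC, as *IRT1* was. For *IME1* they were *PFA5*, *NTO1*, *DFP3*, *UBP12* and YPL229W (r between 0.973 and 0.981), and for *RME1* they were *OPY2*, YLR046C, YBR085C-A, *TVS1* and *NTH1* (r between 0.980 and 0.985). The points share their libraries and fall into a NaCl pair and the rest, so these coefficients describe the likeness of profiles in this table.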

How the data were processed

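RNA-seq of BY4743 in 6 environments, with 2 replicates each, was analysed. The authors aligned paired reads to the Ensembl R64 genome by Hisat2, and cuffquant and cuffnorm gave the value of each gene. Samtools (1.9) is named in the labels. The authors deposited the counts as a signal scaled to the library size, which can be fractional, and FPKM values from the same programs. For the 10 genes, count and FPKM differ only by exon length. The labels call the libraries non-paired. The authors' edgeR exact test was not repeated, because the deposited values are not raw counts. Depth, from the step between low values, was 12400000 to 15500000 read pairs per library, and of the values between 0.5 and 20 in a library, 74.2% to 82% were multiples of the step to within 0.01 of it, too few for a test on counts.

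Genes with a mean of at least 10 scaled counts, 6082 in number, were tested with limma (3.58.1, R 4.3.3) on log2(scaled count + 1), with all 12 libraries in 1 fit, the environment as the only factor, a variance trend, and Benjamini-Hochberg adjustment over all genes within each of 7 comparisons (threshold 0.05). The fit was also run on simulated counts with 200 changed genes. Those counts were made with no shift in the median of all genes, so nothing is read from that run. The alternatives were median-of-ratios scaling, other filters and pseudocounts, FPKM in place of counts, a replicate block, a fit of only the groups compared, and leaving out each library. Of the identifiers, 6088 matched the R64 annotation. Motifs were searched on both strands of the reference. The text names the 10 genes, of each list up to 3 of the largest rises and falls in a comparison among genes called, and the 5 genes most like *IRT1*, *IME1* and *RME1*. *UME6* in NaCl, *IME4* and the markers with values were chosen after their values were seen. The 10 genes and the lists were chosen with earlier results of these data known. Python 3.11.15, numpy 2.4.6, pandas 2.3.3 and matplotlib 3.10.9 were used.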

Additional observations from a re-analysis of the deposited data

How the results depend on the processing

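No difference that passed the test changed its direction under another setting, and *IRT1*, which was not tested, went from -0.19 to 0.074 between 24°C and 32°C in YPD with median-of-ratios scaling. Of 720 repeats of differences that passed, 666 passed again and 54 did not, and of 540 repeats of differences that did not pass, 6 did. Many of these repeats left out a library of an environment not compared or changed the values little. The share that passed again is therefore no measure of how firm a call is. Most calls, 8, were lost without replicate 1 of standard SC. With median-of-ratios scaling, 4 of the 9 genes differed between 24°C and 32°C in YPD in place of 7, and with only the groups compared in the fit, 2 differed between YPD at 32°C and standard SC (*HOP1* besides *REC8*) in place of 1. Leaving out 1 library at a time gave 1 to 3 genes for SC at 37°C, 7 to 8 for SC with NaCl, 3 to 6 for YPG, 4 to 6 for YPD at 24°C and 1 to 2 for YPD at 32°C, each against standard SC. It gave 4 to 7 for YPD at 24°C and 5 to 7 for YPG, each against YPD at 32°C, and 8 to 9 for the moderated F. Without replicate 1 of YPD at 32°C, 4 genes differed between 24°C and 32°C in YPD. Summed over the 7 comparisons, the calls were 75 to 103 for the regulators (90 with all libraries), 66 to 86 for the early genes (80) and 88 to 123 for the middle and late genes (113). The replicate numbers are not known to pair the cultures: same-numbered libraries of SC at 37°C and standard SC deviated together (r = 0.213 across genes), and the other comparisons had r between -0.0941 and 0.0354, each from 2 pairs. With a replicate block, 2 genes differed in SC at 37°C and 6 between 24°C and 32°C in YPD, where *SPO13* and *HOP1* no longer passed (limma adjusted p = 0.0563 and 0.0502). The block gave 8, 6, 5, 1 and 6 genes in the other comparisons, 8 for the moderated F, and 90, 82 and 112 calls for the 3 lists. With 2 replicates an environment, p in the main fit rests on the spread between replicate cultures, pooled over the 6 environments and moderated across genes. It covers these cultures only.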
